A study of Oryza sativa Japonica Group with 4 samples.

Results

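The starch synthases of rice are the enzymes that build the glucan chains of starch, and their transcripts were followed in endosperm under high temperature. They were taken as all transcript models of 10 gene IDs: GBSSI, the product of the Waxy gene (LOC_Os06g04200), GBSSII (LOC_Os07g22930), SSI (LOC_Os06g06560), SSIIa (LOC_Os06g12450), SSIIb (LOC_Os02g51070), SSIIc (LOC_Os10g30156), SSIIIa (LOC_Os08g09230), SSIIIb (LOC_Os04g53310), SSIVa (LOC_Os01g52250) and SSIVb (LOC_Os05g45720). The table held 24 transcript models of these 10 genes among 67393 models of 56797 gene IDs. Its descriptions call every one of them a starch synthase, but do not separate most of the isoforms, so the isoform names are those known for the gene IDs. By the chromosome number inside each ID, Waxy, SSI and SSIIa all lie on chromosome 6.

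Rice plants of the cultivar Nipponbare were grown at 28°C by day and 22°C by night, each lasting 12 h. At 5 days after pollination they were moved to rooms at 35°C by day and 28°C by night (high temperature, replicates 1 and 2) or at 28°C and 22°C (control, replicates 1 and 2), and seeds were taken after 5 days. Poly(A) RNA of the endosperm was sequenced as 4 libraries, whose deposited counts summed to 6395533 to 11492692 over all transcript models. The methods say that fresh seeds were sampled and that RNA came from endosperm, and no label says that the replicates came from separate plants, so p-values measure only the spread between these libraries.

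A starch synthase takes glucose from ADP-glucose and adds it to the end of a growing glucan chain. The granule-bound enzymes work inside the starch granule, where GBSSI makes amylose in endosperm and GBSSII is the form of leaves and pericarp. The soluble enzymes lengthen the chains of amylopectin. SSI makes short chains, SSIIa extends them to intermediate length, SSIIIa makes long chains, and SSIV is known from Arabidopsis for starting granules. In rice grains, GBSSI, SSIIa and SSIIIa are known as forms whose transcripts come late in filling, GBSSII, SSIIb and SSIIIb as early forms, and the others as forms of steady level. Grains that fill in heat are known for chalky starch and altered amylose content.

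The libraries carried the transcripts of starchy endosperm. All 43 genes described as glutelin or prolamin had reads in every library, with a sum of 250620 to 471836 CPM per library and 5 of 43 genes above 0 in log2 fold change at high temperature, at a median of -0.91 (CPM being the reads of a transcript scaled to library size after TMM normalization). Oleosin genes, which mark embryo and aleurone, were also present, with reads for 6 of 7 genes and a sum of 790.2 to 1283 CPM. All 21 genes for chlorophyll-binding proteins or the small chain of Rubisco, which mark green pericarp, had reads, with a sum of 763.6 to 1480 CPM. Between 8.51% and 35.2% of the reads of a library fell on only LOC_Os09g01000.1 and LOC_Os09g00999.1. Less RNA per cell and fewer cells of a kind cannot be told apart in bulk samples.

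Levels of the genes were compared per length, as RPKM (reads per kilobase of transcript, scaled to library size) computed from the deposited reads with TMM-scaled library sizes. Each gene is given by its leading transcript, the model with the highest mean RPKM. All 10 genes had reads in all 4 libraries. The family split into 4 abundant and 6 scarce members, and the mean levels ran from 324.7 RPKM for Waxy down to 1.42 RPKM for SSIIb. Waxy was the most abundant in every library, at 324.7 ± 93.4 RPKM (SD, n = 4 libraries). SSI followed in every library with 154.8 ± 60.0 RPKM (SD, n = 4). SSIIIa with 78.7 ± 20.7 RPKM and SSIIa with 77.3 ± 20.5 RPKM (SD, n = 4) could not be put in order: SSIIa was the higher in both controls and SSIIIa in both high temperature libraries. The next level, that of SSIIc at 10.2 ± 0.962 RPKM (SD, n = 4), lay apart from both in all 4 libraries.

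**Figure D1:**
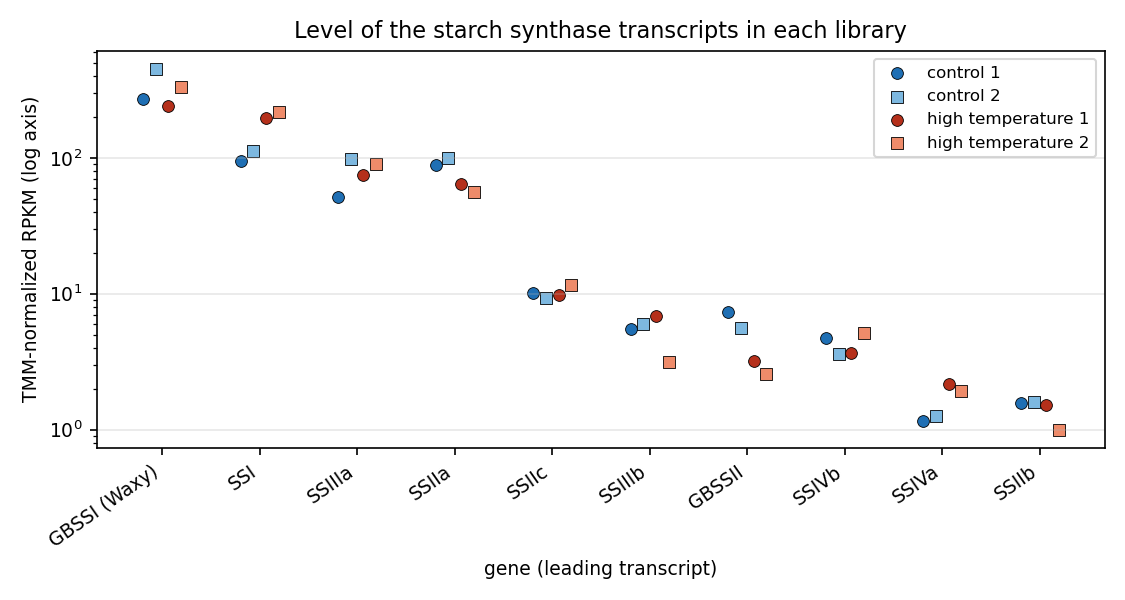
Level of the leading transcript of each starch synthase gene in TMM-normalized RPKM (vertical, log axis) for the 10 genes (horizontal, ordered by mean), with 1 point per library. Waxy, SSI, SSIIIa and SSIIa lie above 50 RPKM in every library, and the other 6 genes lie at or below 11.5 RPKM.

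Below SSIIc, the levels of SSIIIb at 5.37 ± 1.58 RPKM, GBSSII at 4.67 ± 2.19 RPKM and SSIVb at 4.29 ± 0.775 RPKM (SD, n = 4) overlapped, and their order changed from library to library. SSIVa at 1.63 ± 0.496 RPKM and SSIIb at 1.42 ± 0.283 RPKM (SD, n = 4) overlapped too, with SSIIb the higher in both controls and SSIVa in both high temperature libraries. The steadiest level was that of SSIIc, whose highest library had 1.25 times its lowest. The most variable was GBSSII, with 2.84 times. When the RPKM of all models of a gene was summed, 5 of the 10 genes kept their place in the order, and Waxy stayed first with 807.9 RPKM. Exons are shared between models, and how reads in them were divided is not given in the sources used here, so such sums may count reads more than once.

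The comparison of the 2 temperatures used edgeR's quasi-likelihood test over the 27358 transcripts that reached 1 CPM in 2 or more libraries, and all 24 starch synthase models were among them. None of the 24 had a Benjamini-Hochberg adjusted p under 0.05, and neither did any transcript tested (0%), although 1900 had an unadjusted p under 0.05 and DESeq2 called 58. An unadjusted p under 0.05 was found for 8 of the 24 models, from the 3 genes GBSSII, SSI and SSIVa, against 6.94% of all transcripts tested. Of these 8, 5 were higher at high temperature, against 4.15% of all transcripts, and 3 were lower, against 2.79%. With DESeq2, 0 of the 24 had an adjusted p under 0.05 and 5 had an unadjusted p under 0.05. Models of a gene share reads, so the 8 models stand for 3 genes. The median log2 fold change of the 24 models, high temperature over control, was -0.06, beside 0.0023 for all transcripts tested, with 12 models above 0 and 12 below.

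**Figure D2:**
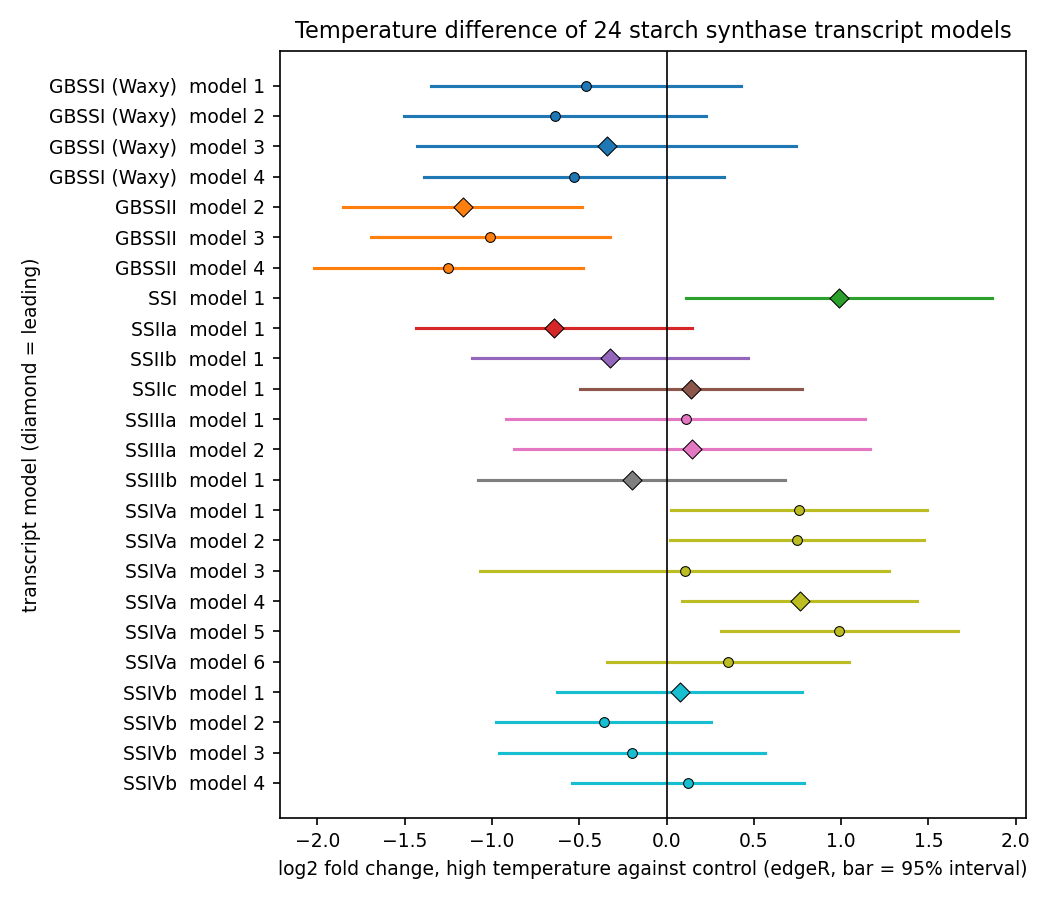
Log2 fold change, high temperature over control (horizontal), for the 24 starch synthase transcript models (vertical), from edgeR, with bars for the 95% interval and diamonds for the leading model of each gene. The 3 GBSSII models lie between -1.25 and -1.01, SSI lies at 0.99, and the Waxy models lie between -0.64 and -0.34 with intervals that cross 0.

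Waxy, the gene of GBSSI, was listed with 4 models of 2163 to 2813 bases. Its leading transcript LOC_Os06g04200.3 was at 273.4 and 453.1 RPKM in control replicates 1 and 2 and at 241.0 and 331.5 RPKM in high temperature replicates 1 and 2. The groups overlapped, because high temperature replicate 2 lay above control replicate 1. The means were 363.2 ± 127.1 RPKM at control and 286.2 ± 64.0 RPKM at high temperature (SD, n = 2 each), a log2 fold change of -0.34 with a 95% interval from -1.43 to 0.74 (adjusted p = 0.930, edgeR). With TMM scaling, this direction rested on control replicate 2, without which the log2 fold change was 0.06. On that scaling, control replicate 2 was highest in this leading transcript and high temperature replicate 1 lowest. The order depended on the scaling. Its reads were 11661 and 7733 at control and 4719 and 6707 at high temperature. The summed counts of these libraries were 11492692 and 8022185, and 7813601 and 6395533. Relative to these sums, without TMM, high temperature replicate 2 lay above both controls. With TMM, the order of the leading transcript over the libraries was also that of the summed glutelin and prolamin CPM (265714 and 471836 at control, 250620 and 339520 at high temperature). In the shorter Waxy models the order differed, with control replicate 1 above high temperature replicate 2. Gene by gene, 5 of the 43 glutelin and prolamin genes were above 0 in log2 fold change, with a median of -0.91. Their part in the Waxy values was not tested.

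The 3 shorter Waxy models differed from the leading one in whether the groups overlapped. LOC_Os06g04200.1 was at 195.9 and 219.5 RPKM at control and at 126.5 and 174.8 RPKM at high temperature, so both high temperature libraries lay below both controls. The same held for LOC_Os06g04200.2 and LOC_Os06g04200.4. Their log2 fold changes were -0.46, -0.64 and -0.53, with the lowest adjusted p at 0.812 (edgeR). The leading model is 557 bases longer than LOC_Os06g04200.1 and held 1.74 times its reads in control replicate 1, against 2.57 times in control replicate 2 and 2.38 and 2.36 times in the high temperature libraries. Control replicate 1 therefore stood apart from the other 3 libraries in how Waxy reads were spread over the models. The deposited table holds no exon structure, so which part of the gene the longer model covers was not analysed here.

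GBSSII, the granule-bound enzyme of leaf and pericarp starch, had the largest difference of the 10 leading transcripts. LOC_Os07g22930.2 was at 7.31 and 5.61 RPKM in the controls and at 3.20 and 2.58 RPKM in the high temperature libraries, from 329, 101, 66 and 55 reads in that order. Both high temperature libraries lay below both controls. The mean at high temperature was 0.447 times that at control (2.89 ± 0.437 against 6.46 ± 1.20 RPKM, SD, n = 2 each). The log2 fold change was -1.17 with a standard error of 0.30 and a 95% interval from -1.85 to -0.48 (unadjusted p = 0.00424, adjusted p = 0.513, edgeR). The other models, LOC_Os07g22930.3 and LOC_Os07g22930.4, had log2 fold changes of -1.01 and -1.25.

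The adjusted p of GBSSII was the most sensitive of the family to the libraries, the filter and the block. Without control replicate 2 it was 0.0464 for LOC_Os07g22930.2, and 354 transcripts of the whole table then passed the threshold. That fit has a single control library, which is assumed to vary like the high temperature pair. Without the filter on low counts, LOC_Os07g22930.4 passed among 365 of 44411 transcripts. With the replicate numbers crossed between temperatures as a block, a fit chosen after seeing the data, the adjusted p of LOC_Os07g22930.2 was 0.00584 and 828 transcripts passed. The direction stayed below 0 in all 16 alternative fits, from -1.34 to -0.95. These fits reuse the same libraries, whose groups did not overlap, so the sign had little room to turn. The summed green pericarp genes had 1057 and 886.1 CPM at control and 1480 and 763.6 CPM at high temperature, and 15 of the 21 were above 0 in log2 fold change. Their part in the GBSSII values was not tested.

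SSI, which makes the short chains of amylopectin, had the largest log2 fold change above 0 among the leading transcripts. Its single model LOC_Os06g06560.1 was at 94.4 and 113.1 RPKM in the controls and at 195.3 and 216.3 RPKM in the high temperature libraries. The lower of the high temperature libraries exceeded the higher control, and the gap between the groups was wider than the gap within either. The mean was 1.98 times higher at high temperature (205.8 ± 14.8 against 103.8 ± 13.2 RPKM, SD, n = 2 each). The log2 fold change was 0.99 with a standard error of 0.38 and a 95% interval from 0.11 to 1.87 (unadjusted p = 0.0318, adjusted p = 0.686, edgeR). It stayed above 0 in all 16 alternative fits, from 0.86 to 1.12. These fits reuse the same libraries, whose groups did not overlap, so the sign had little room to turn. SSI passed the adjusted threshold in none of them, with the lowest adjusted p at 0.185 (edgeR, crossed replicate block).

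SSIIa, which extends the short chains, lay on the other side. LOC_Os06g12450.1 was at 88.6 and 99.97 RPKM at control and at 64.7 and 56.0 RPKM at high temperature, and the groups did not overlap. The mean at high temperature was 0.640 times that at control (60.3 ± 6.20 against 94.3 ± 8.07 RPKM, SD, n = 2 each). The log2 fold change was -0.64 with a 95% interval from -1.43 to 0.15 (adjusted p = 0.787, edgeR), and from -0.75 to -0.56 in the 16 alternatives.

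SSIIIa, the long-chain enzyme of endosperm, gave no separation. LOC_Os08g09230.2 was at 51.4 and 98.1 RPKM in the controls and at 74.5 and 90.8 RPKM in the high temperature libraries, so both high temperature libraries lay between the controls. Its log2 fold change of 0.15 had a 95% interval from -0.87 to 1.17 (adjusted p = 0.967, edgeR). The direction turned to -0.25 without control replicate 1 and to -0.02 without high temperature replicate 2. The other model, LOC_Os08g09230.1, differs by 2 bases in length and held nearly the same reads, with a log2 fold change of 0.11.

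SSI was set against the other abundant members inside each library, where no scaling between libraries is needed. The reads per kilobase of SSIIa were 0.938 and 0.884 times those of SSI in the controls, and 0.331 and 0.259 times in the high temperature libraries. Waxy had 2.90 and 4.01 times the reads per kilobase of SSI at control, and 1.23 and 1.53 times at high temperature. SSIIIa had 0.545 and 0.867 times at control, and 0.381 and 0.420 times at high temperature. All 3 ratios to SSI were lower in both high temperature libraries than in both controls, with log2 differences of -1.64 for SSIIa, -1.31 for Waxy and -0.78 for SSIIIa. The same was found for 78.0% of all transcripts tested when their reads were divided by those of SSI, so the direction is not particular to these 3 genes. With 2 libraries per temperature the exact permutation test of a ratio cannot go below p = 0.333 (two-sided), so none is given.

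**Figure D3:**
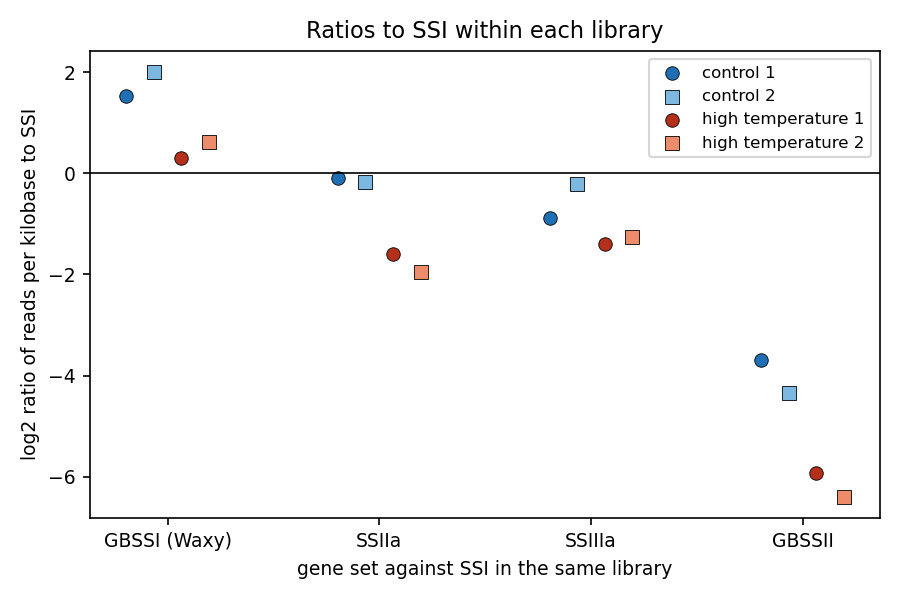
Log2 ratio of the reads per kilobase of Waxy, SSIIa, SSIIIa and GBSSII to those of SSI in the same library (vertical), with 1 point per library. For each gene the 2 high temperature points lie below the 2 control points, and for SSIIa they move from -0.09 and -0.18 to -1.59 and -1.95.

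Between members other than SSI the ratios were less uniform. The ratio of Waxy to SSIIa was 3.09 and 4.53 at control and 3.72 and 5.92 at high temperature, so the groups overlapped. Waxy to SSIIIa was 5.32 and 4.62 at control and 3.23 and 3.65 at high temperature, with no overlap. The ratio of Waxy to GBSSII, the pair of granule-bound forms, was 37.4 and 80.8 at control and 75.4 and 128.6 at high temperature, which overlapped. GBSSII and SSIVa, both scarce, were on opposite sides: SSIVa had 0.158 and 0.225 times the reads per kilobase of GBSSII at control and 0.681 and 0.743 times at high temperature, with no overlap. How often such ratios keep the groups apart among other transcripts was not computed.

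In each library the 10 leading transcripts were also expressed as shares of their summed reads per kilobase. Waxy took 50.8% and 57.2% of the family at control and 40.0% and 46.0% at high temperature. SSI took 17.5% and 14.3% at control and 32.4% and 30.0% at high temperature. SSIIa took 16.5% and 12.6% at control and 10.7% and 7.77% at high temperature. In these 3 shares the groups did not overlap, and shares are bound to each other, since a larger share of SSI leaves less for the rest. How often such shares keep the groups apart among other transcripts was not computed. Relative to SSI, 78.0% of all transcripts tested were lower in both high temperature libraries than in both controls. The share of SSIIIa was 9.55% and 12.4% at control and 12.4% and 12.6% at high temperature. The soluble enzymes together, with SSI among them, held 47.8% and 42.1% at control and 59.5% and 53.6% at high temperature. The summed level of the family overlapped between temperatures, with 538.1 and 791.6 RPKM at control and 602.8 and 719.9 RPKM at high temperature.

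**Figure D4:**
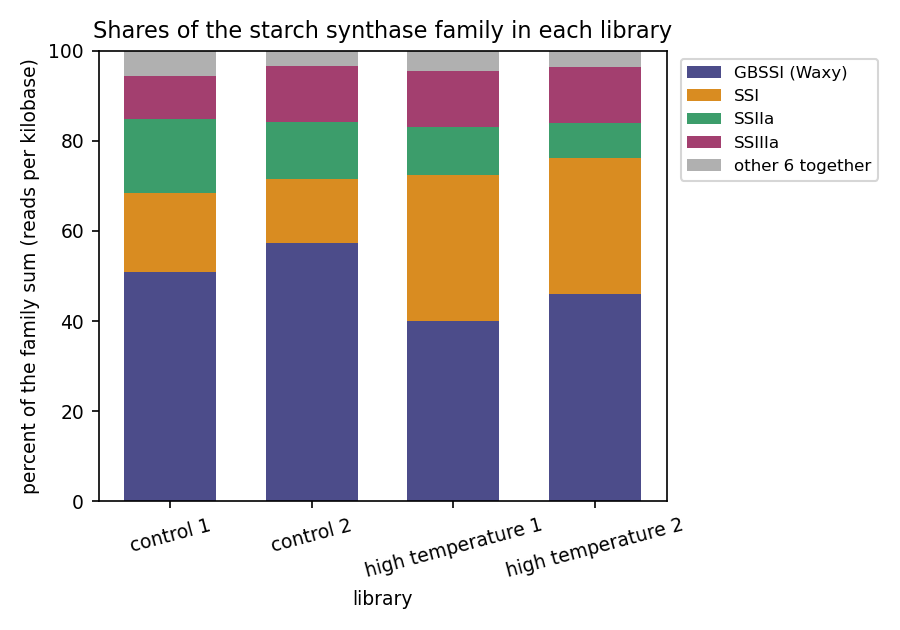
Share of each abundant starch synthase and of the other 6 together in the summed reads per kilobase of the 10 leading transcripts (vertical, percent), with 1 stacked bar per library. The SSI part is 17.5% and 14.3% in the controls and 32.4% and 30.0% in the high temperature libraries, and the Waxy part is 50.8% and 57.2% against 40.0% and 46.0%.

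The scarce members were measured with fewer reads. SSIVa, of the granule-starting class, was listed with 6 models, whose reads ran from 12 to 113 per library. Its leading transcript LOC_Os01g52250.4 was at 1.15 and 1.26 RPKM at control and at 2.18 and 1.91 RPKM at high temperature, with both high temperature libraries above both controls. Its log2 fold change was 0.76 with a 95% interval from 0.09 to 1.44 (unadjusted p = 0.0311, adjusted p = 0.686, edgeR). Of its 6 models, 5 had both high temperature libraries above both controls, against 19.1% of all transcripts tested. For 4 of the 6 the unadjusted p was under 0.05 (edgeR), against 6.94%. LOC_Os01g52250.3, with the fewest reads, had a log2 fold change of 0.10. The 6 models overlap in their reads, so these counts are no separate evidence. In the fit with the crossed replicate block, chosen after seeing the data, LOC_Os01g52250.5 passed the adjusted threshold.

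SSIVb, the other gene of the class, showed no such difference. LOC_Os05g45720.1 was at 4.71 and 3.62 RPKM at control and at 3.66 and 5.17 RPKM at high temperature, which overlapped. Its log2 fold change was 0.08 with a 95% interval from -0.63 to 0.78 (adjusted p = 0.979, edgeR). The log2 fold changes of its 4 models ran from -0.36 to 0.12 and took both signs. The ratio of SSIVa to SSIVb in the same library was 0.245 and 0.349 at control and 0.594 and 0.370 at high temperature. The groups did not overlap, but control replicate 2 and high temperature replicate 2 were close, and no share over all transcripts was computed for this ratio.

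SSIIb, an early form, was at 1.56 and 1.59 RPKM at control and at 1.52 and 0.998 RPKM at high temperature, from 23 to 76 reads. Both high temperature libraries lay below both controls, replicate 1 only narrowly. SSIIc, of steady level, was at 10.1 and 9.24 RPKM at control and at 9.84 and 11.5 RPKM at high temperature, which overlapped. SSIIIb, the early form of its class, was at 5.51 and 5.97 RPKM at control and at 6.84 and 3.14 RPKM at high temperature, the widest ratio between high temperature replicates among the 10 genes. Their log2 fold changes were -0.32, 0.14 and -0.20, with 95% intervals of -1.11 to 0.47, -0.50 to 0.77 and -1.08 to 0.68 (adjusted p of 0.907 and above, edgeR). The signs of SSIIc and SSIIIb depended on single libraries, being -0.0059 and 0.23 without high temperature replicate 2. High temperature replicate 1, where SSIIIb was highest, and high temperature replicate 2, where it was lowest, were also the highest and lowest in the summed green pericarp transcripts, whose part in SSIIIb was not tested.

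Counted over the 24 models, 6 had both high temperature libraries above both controls, against 19.1% of all transcripts tested, and 9 had both below, against 17.7%. Models of a gene share reads: 5 of the 6 above were of SSIVa, and 3 of the 9 below were of Waxy and 3 of GBSSII. Over the 10 leading transcripts, SSI and SSIVa were the 2 above (20%), and GBSSII, SSIIa and SSIIb the 3 below (30%). By known class, all 4 forms of steady level had a log2 fold change above 0, from 0.08 to 0.99, and all 3 early forms had one below 0, from -1.17 to -0.20. Of the late forms, Waxy and SSIIa lay below 0 and SSIIIa above. Over all transcripts tested, 13735 of 27358 lay above 0. The classes are small, and the signs of SSIIc, SSIVb and SSIIIb changed when single libraries were left out. SSIVb also turned to -0.10 with all libraries when counts were summed per gene.

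The rest of the starch pathway was read from the same fit as 24 genes with 48 models, all tested. None of the 48 had an adjusted p under 0.05 and 1 (2.08%) had an unadjusted p under 0.05, against 6.94% of all transcripts tested. Over the leading transcripts the median log2 fold change was -0.18, with 9 above 0 and 15 below, and 11 of the 24 (45.8%) had both high temperature libraries below both controls, against 17.7% of all transcripts tested. Among the 19 genes other than regulators, 15 were below 0. All 5 regulators were above 0, though the groups overlapped in 3 of them. Over all transcripts tested, 13735 of 27358 lay above 0. Most of the 43 glutelin and prolamin genes were below 0 too, with 5 above 0 and a median of -0.91, and their part in the pathway values was not tested.

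For the supply of ADP-glucose, 6 of 7 leading transcripts were below 0. The lowest was AGPL3, a large subunit of ADP-glucose pyrophosphorylase, at -1.10 (95% interval -1.89 to -0.30, unadjusted p = 0.0127, adjusted p = 0.599, edgeR), and the highest was AGPL4, another large subunit, at 0.15. Of the branching enzymes, which add the branch points of amylopectin, BEIIb had a log2 fold change of -1.04 and BEIIa one of 0.01. BEIIb was at 829.0 and 873.2 RPKM at control and at 333.4 and 496.7 RPKM at high temperature, with no overlap (adjusted p = 0.755, edgeR).

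Of the debranching enzymes, which trim misplaced branches, ISA1 was lowest at -0.84 and ISA2 highest at 0.29. The plastid phosphorylase PHOL had a log2 fold change of -0.84 and its cytosolic counterpart PHOH one of -0.14. The disproportionating enzymes DPE1 and DPE2 were at -0.55 and -0.11, and FLO6, a starch-binding protein of granule formation, at -0.22. Of the transcription factors known to act on starch synthesis genes, NAC20 was highest at 0.75 and RPBF lowest at 0.14. None of these passed the adjusted threshold. Of the 24 pathway genes, bZIP58 and NAC20 were the 2 (8.33%) with both high temperature libraries above both controls, against 19.1% of all transcripts tested.

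**Figure D5:**
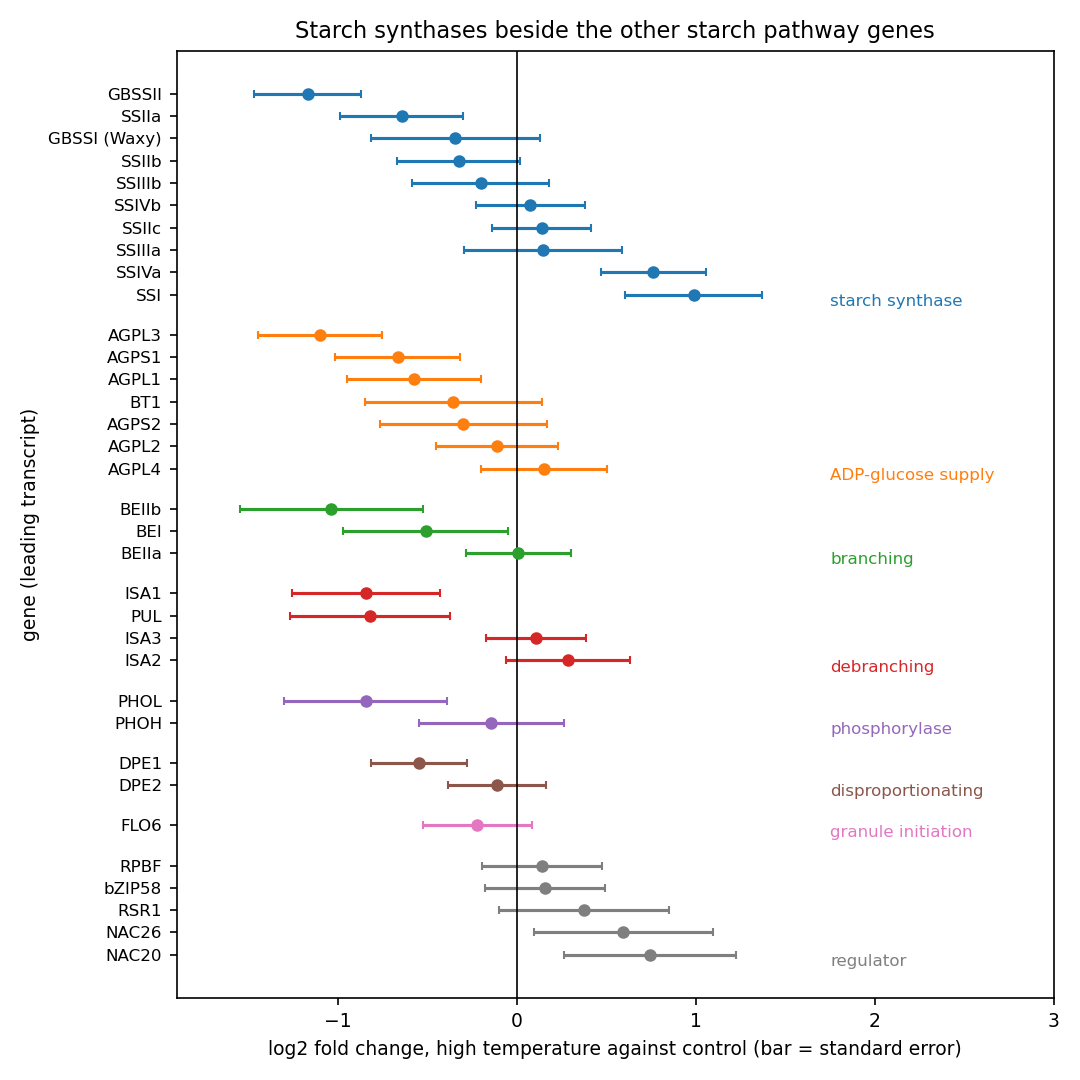
Log2 fold change, high temperature over control (horizontal, edgeR, bars for 1 standard error) of the leading transcript of the 10 starch synthases and of 24 other starch pathway genes (vertical), grouped by role. SSI at 0.99 and SSIVa at 0.76 lie highest, and GBSSII at -1.17, AGPL3 at -1.10 and BEIIb at -1.04 lie lowest.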

How the data were processed

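The authors deposited 1 table of read counts per transcript model, without normalization, with the transcript length. The paper describes uniquely mapped reads that overlapped exons, and the aligner, genome build and annotation release are not given in the sources used here. NA counts were read as 0. Control replicate 1 listed 0 transcripts as NA, control replicate 2 listed 29117, and high temperature replicates 1 and 2 listed 26717 each. The 4 deposited columns headed RPKM, some of whose cells hold an error message, were not used, and RPKM was recomputed from the counts. Counts were fitted with edgeR 4.0.16 in R 4.3.3 (TMM, quasi-likelihood test, no replicate block, Benjamini-Hochberg over all 27358 transcripts that reached 1 CPM in 2 or more libraries). Standard errors were taken from the fold change and F, as its size over the root of F, and 95% intervals use the t distribution. Python 3.11.15, pandas 2.3.3 and scipy 1.17.1 made the other values, and limma 3.58.1 and DESeq2 1.42.0 were alternatives. The fit was tested on simulated counts. The genes named are the 10 members, the highest and lowest pathway gene of each role, and the 3 transcripts nearest to Waxy in profile. bZIP58 was named after its values were seen. Members and lists were chosen with earlier results of these data known. Of the gene IDs, 0 matched the table of gene names supplied, so no coordinates are given, and sequences were not analysed here. No library pair was a duplicate, since counts differed beyond sampling noise (lowest chi-square over degrees of freedom 17.7). That lowest pair was control replicate 1 with high temperature replicate 2. The next lowest, control replicate 2 with high temperature replicate 1 at 24.4, was also between temperatures. The remaining pairs between temperatures gave 97.7 and 46.0. The quotient was 68.5 between the controls and 58.0 between the high temperature libraries. Spearman correlations were 0.917 within control, 0.923 within high temperature and 0.897 to 0.930 between temperatures. Replicates were therefore not uniformly more alike than libraries of different temperature.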

Additional observations from a re-analysis of the deposited data

How the results depend on the processing

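The fit was repeated with another normalization, tool, filter, sum over models, replicate block and with each library left out. Over all transcripts, the count with an adjusted p under 0.05 was 0 in the reported fit, 58 with DESeq2, 365 without the filter on low counts, and 59 and 78 with limma on log2(RPKM + 1) and log2(RPKM + 0.1). Leaving out each library, which leaves 1 group with a lone sample assumed to vary like the other group, gave 0 to 354, the most in the absence of control replicate 2, and 42 in that of control replicate 1. Of the starch synthase models, 1 passed without the filter (of GBSSII) and 0 to 2 with a library left out, both of GBSSII and without control replicate 2. With the replicate number as a block, 0 transcripts and 0 starch synthase models passed. The deviations of same-numbered replicates correlated at -0.36, so a crossed replicate block was added after seeing the data, and in it 828 transcripts, 4 starch synthase models (3 of GBSSII and 1 of SSIVa) and 1 other pathway model passed. The median log2 fold change of the models ran from -0.28 (without control replicate 1) to 0.019 with libraries left out, and from 3 (without high temperature replicate 2) to 5 leading transcripts were then above 0. Directions turned for Waxy (0.064 without control replicate 2), for SSIIIa (-0.25 without control replicate 1, -0.02 without high temperature replicate 2), for SSIIc (-0.0059) and SSIIIb (0.23) without high temperature replicate 2, and for SSIVb (-0.10 with counts summed per gene, -0.10 without control replicate 2, -0.22 without high temperature replicate 2). With a library left out, Waxy ran from -0.67 to 0.064, SSIIb from -0.66 to -0.077, SSIIc from -0.0059 to 0.25, SSIIIa from -0.25 to 0.68, SSIIIb from -0.87 to 0.23 and SSIVb from -0.22 to 0.30. GBSSII, SSI, SSIIa, SSIIb and SSIVa kept their direction in every fit that gave a value. These are the leading transcripts whose groups did not overlap. Leaving out 1 library could hardly turn their sign, and the other fits reuse the same libraries, so the kept direction is no separate evidence. The difference in the share of Waxy was -14.2 to -7.79 percentage points with a library left out, against -11.01 in all. The order of levels kept 5 of 10 places with models summed and 8 without TMM. The promoter and protein descriptions were not run.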

Other observations

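The profile of Waxy over the 4 libraries was set beside those of 1241 transcripts of other genes with a mean of at least 50 CPM, as the Euclidean distance of log2(CPM + 1) values centred on their mean. The median distance was 0.89. Of the 3 nearest described transcripts, LOC_Os08g08840.2, a phosphate translocator, lay at 0.12 and LOC_Os01g20840.1, a class 3 lipase, at 0.16. The last, LOC_Os10g39420.1, lay at 0.18. Its description places it in the CAMK group, which includes calcium/calmodulin-dependent protein kinases. The values of LOC_Os08g08840.2 were 194.7 and 290.6 CPM at control and 161.6 and 214.1 CPM at high temperature. Within the family, SSIIIa was nearest to Waxy at 0.56, with 166 of the 1241 transcripts nearer, and SSI was farthest at 1.37, with 1066 nearer. Distances over 4 libraries are a description, and all profiles share the depth and scaling of those libraries.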
